A study of Homo sapiens with 30 samples.

Results

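Genes for the machinery that releases paused RNA polymerase II and carries it through the gene body were followed across all 9 PRO-Seq samples of G401 cells, together with MYC and ATAC-Seq peaks at their starts. The 9 genes, SUPT5H, SUPT4H1, SUPT6H, CDK9, CCNT1, CCNT2, HEXIM1, LARP7 and AFF4, were chosen by name from the 20367 gene symbols of the PRO-Seq table. All 9 were in the table and all 9 passed the filter on counts in each region, gene body and promoter-proximal window.

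G401 is a malignant rhabdoid tumor (MRT) line that lacks SNF5, the SWI/SNF subunit encoded by SMARCB1. The cells carried a lentiviral, tetracycline-inducible construct for EGFP (the control), SNF5, or OmoMYC, a dominant-negative mutant of MYC, and all groups received 1 μg/ml doxycycline for 24 h. The cells were selected pools rather than named clones, and the study describes its PRO-Seq and ChIP-Seq replicates as independent experiments. The labels do not say whether numbered samples were separate cultures. The p-values therefore measure only the spread of these samples, after differences between replicate numbers are removed. PRO-Seq, a nuclear run-on assay that maps active polymerases, was performed on 3 samples per construct, ATAC-Seq, which maps accessible DNA, on 3, and MYC ChIP-Seq on 2.

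After initiation, RNA polymerase II commonly stops shortly downstream of the start site, held by NELF and by DSIF, the heterodimer of SPT5 (SUPT5H) and SPT4 (SUPT4H1). P-TEFb, the kinase CDK9 with cyclin T1 (CCNT1) or cyclin T2 (CCNT2), phosphorylates NELF, SPT5 and the polymerase, which frees the polymerase to elongate. HEXIM1 inhibits P-TEFb within the 7SK ribonucleoprotein, in which LARP7 stabilizes the 7SK RNA. AFF4 is a scaffold of the super elongation complex, which carries active P-TEFb to genes, and SPT6 (SUPT6H) is a histone chaperone that travels with elongating polymerase. MYC is known to act on pause release in part through P-TEFb.

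Gene body totals, in units of 1000000 reads, ran from 28.4 to 46.9 per sample. The share of reads in promoter-proximal windows followed the replicate number: it was 1.46 to 1.97% in the 3 samples numbered 1, 8.63 to 10.3% in those numbered 2 and 4.22 to 5.13% in those numbered 3. Tests therefore compared constructs within a replicate number. As a check of the labels, SMARCB1 had 4, 1 and 6 gene body reads in the EGFP samples, 2, 5 and 4 with OmoMYC, and 2870, 4467 and 3440 with SNF5. Gene body reads on MYC, which do not separate the endogenous gene from OmoMYC, rose by 0.95 on the log2 scale with OmoMYC (standard error 0.22, adjusted p = 0.0378), a call that ended without replicate 1 (adjusted p = 0.459), without replicate 2 (0.388) and without the replicate block (0.719).

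The sequences that bear on MYC at these genes are those under the MYC peaks and the promoters of the members whose gene body reads changed. MYC with its partner MAX binds the E-box, CACGTG, which reads the same on both strands. It is in capitals in the sequences that follow. The first 3 are 201 bases of GRCh37, plus strand, centred on MYC peak summits of EGFP samples: chr5:132299275-132299475 at AFF4, chr2:135676233-135676433 at CCNT2 and chr19:39926545-39926745 at an upstream start of SUPT5H. The CCNT2 window is 1 of 3 under separate peaks of EGFP sample 2.
AFF4, EGFP sample 2: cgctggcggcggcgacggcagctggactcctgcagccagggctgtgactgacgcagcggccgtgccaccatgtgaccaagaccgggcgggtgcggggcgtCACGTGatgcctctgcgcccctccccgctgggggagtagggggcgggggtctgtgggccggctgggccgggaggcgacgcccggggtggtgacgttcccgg
CCNT2, EGFP sample 2: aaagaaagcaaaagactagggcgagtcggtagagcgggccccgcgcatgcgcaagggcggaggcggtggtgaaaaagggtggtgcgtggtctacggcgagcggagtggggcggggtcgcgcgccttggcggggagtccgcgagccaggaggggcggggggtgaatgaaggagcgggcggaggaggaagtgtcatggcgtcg
SUPT5H, EGFP sample 2: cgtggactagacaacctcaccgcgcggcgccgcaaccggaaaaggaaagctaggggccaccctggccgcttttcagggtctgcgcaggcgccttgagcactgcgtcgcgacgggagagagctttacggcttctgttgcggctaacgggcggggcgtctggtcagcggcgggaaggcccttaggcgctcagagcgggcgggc
Of the 6 summit windows at the members, the AFF4 window alone held the E-box, and the summit base, 132299375, was its first letter. The 6 windows lay at SUPT5H, CCNT2 and AFF4 only, and those of SUPT5H in EGFP samples 1 and 2 overlap. They are not 6 separate sites, so no share was drawn from them. Across whole lists, 51.3% of the summit windows of EGFP sample 1 and 26.1% of those of EGFP sample 2 held it.

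Promoters, taken here as the 300 bases from 250 before to 50 after a RefSeq start (GRCh38.p14), were matched for all 9 genes, 12 promoters in total. The following are written 5′ to 3′ on the strand of the gene. They show CDK9 (plus strand, chr9:127785784-127786083), CCNT1 (minus strand, chr12:48716658-48716957) and LARP7 (plus strand, chr4:112636893-112637192), the genes with a called change.
CDK9: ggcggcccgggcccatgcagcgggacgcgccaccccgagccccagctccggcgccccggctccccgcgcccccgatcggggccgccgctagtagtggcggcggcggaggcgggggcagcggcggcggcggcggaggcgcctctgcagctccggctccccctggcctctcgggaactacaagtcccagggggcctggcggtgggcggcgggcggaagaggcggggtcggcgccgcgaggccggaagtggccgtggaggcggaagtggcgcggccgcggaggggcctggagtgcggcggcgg
CCNT1: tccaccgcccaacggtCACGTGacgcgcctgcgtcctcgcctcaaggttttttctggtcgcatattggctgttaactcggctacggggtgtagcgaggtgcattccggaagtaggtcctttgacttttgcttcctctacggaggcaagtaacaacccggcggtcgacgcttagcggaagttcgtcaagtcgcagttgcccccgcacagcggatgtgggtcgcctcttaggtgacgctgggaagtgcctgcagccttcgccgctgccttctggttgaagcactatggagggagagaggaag
LARP7: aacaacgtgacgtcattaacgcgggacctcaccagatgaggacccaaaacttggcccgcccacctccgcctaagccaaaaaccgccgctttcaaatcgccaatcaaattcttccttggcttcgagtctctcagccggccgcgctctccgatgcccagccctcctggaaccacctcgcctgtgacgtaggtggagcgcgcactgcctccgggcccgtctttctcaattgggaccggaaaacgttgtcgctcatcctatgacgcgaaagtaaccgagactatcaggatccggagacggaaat
The E-box was present in 2 of the 12 promoters, that of CCNT1 printed here, with its first letter 234 bases before the start, and that of AFF4, 54 bases before the start. CCNT1 and LARP7 each had a further promoter, chr12:48696189-48696488 and chr4:112637252-112637551, which held no E-box and is not printed. Among all 35116 promoters of this length 7.26% held it. The CDK9 and LARP7 windows contained no CACGTG, which says only that these letters are not in these windows.

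Polymerase density over the gene body was compared between members as reads per kb of gene body per 1000000 reads, a level scaled for depth and length. HEXIM1 had by far the highest level in EGFP cells, 41.6 ± 17.7 (SD, n = 3), and was higher than every other member in all 9 samples. CDK9 was next at 7.24 ± 0.33, followed by CCNT1 at 4.34 ± 0.14, and these 3 did not overlap one another. SUPT6H (3.67 ± 0.27), AFF4 (3.55 ± 0.030), SUPT4H1 (3.47 ± 0.70) and CCNT2 (3.38 ± 0.25) overlapped one another in the order given, each with the next. SUPT5H at 2.17 ± 0.57 and LARP7 at 1.39 ± 0.19 were lowest and overlapped each other.

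**Figure D1:**
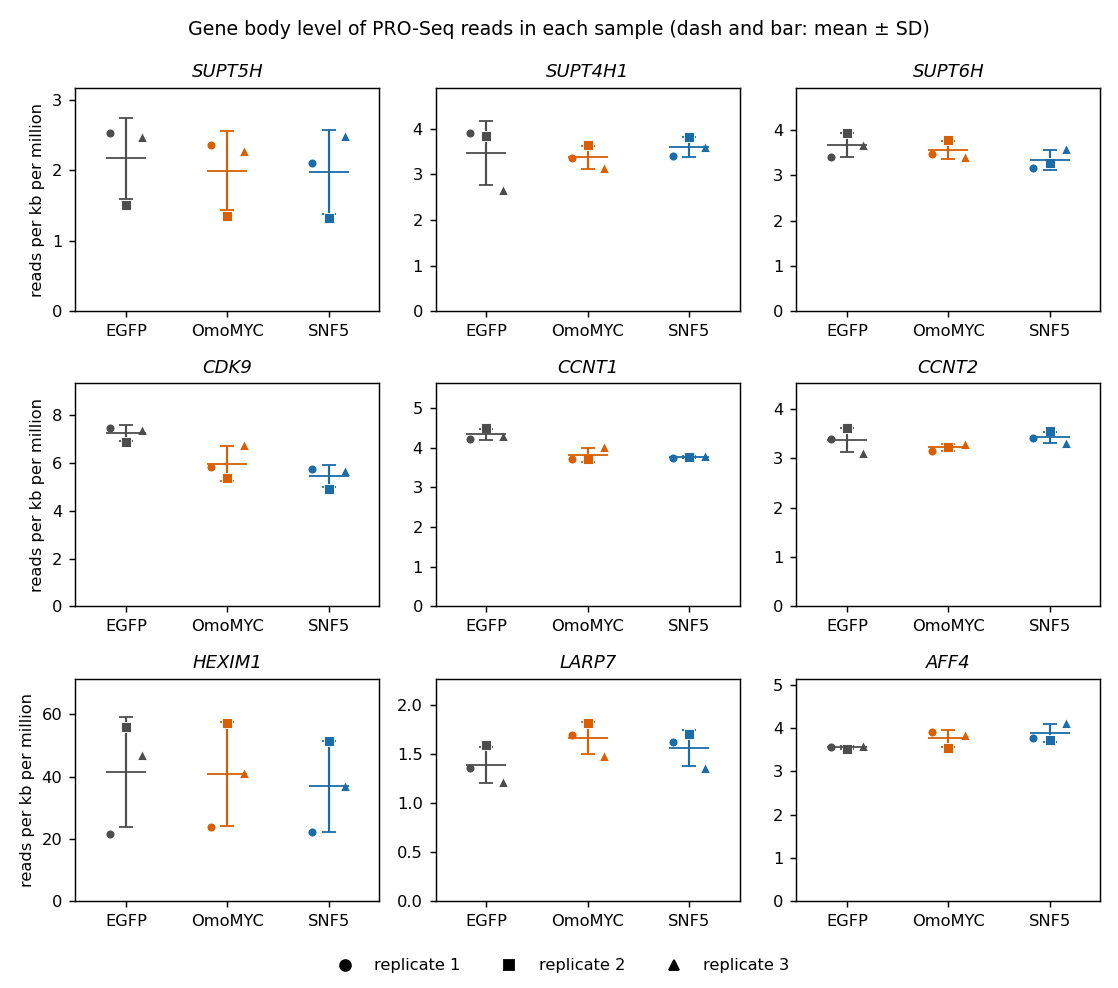
Gene body level of the 9 genes (y axis, reads per kb per 1000000 reads, from 0) in each PRO-Seq sample, by construct (x axis). Markers give the replicate number, and dashes with bars the mean ± SD of 3 samples. CDK9 and CCNT1 lie lower in all OmoMYC and SNF5 samples than in any EGFP sample, and HEXIM1 is lowest in replicate 1 of every construct. The share of all genes with such a separation was not counted.

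The kinase gene CDK9 (NM_001261, chromosome 9 from 130548305 to 130553052 of hg19, plus strand) lost gene body polymerase with SNF5. Its level in EGFP samples 1, 2 and 3 was 7.47, 6.86 and 7.40. In SNF5 samples 1, 2 and 3 it was 5.74, 4.91 and 5.67. In the OmoMYC samples it was 5.82, 5.36 and 6.76. Every SNF5 and OmoMYC sample was below every EGFP sample. The share of all genes that separate in this way was not counted, here or for the members that follow. The SNF5 samples differed from EGFP by a log2 fold change of −0.41 (standard error 0.083, adjusted p = 0.00581, edgeR's quasi-likelihood test with Benjamini-Hochberg adjustment over 15060 genes), a fold of 0.750 with a 95% confidence interval from 0.659 to 0.854. For OmoMYC the estimate, −0.28 (standard error 0.083), did not pass the threshold of 0.05 (adjusted p = 0.067). SNF5 set directly against OmoMYC gave −0.14, with an interval from −0.32 to 0.053 (adjusted p = 0.287), so no difference between the constructs was shown.

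CCNT1, the gene for the main cyclin partner of CDK9 (NM_001240, chromosome 12 from 49082241 to 49110781, minus strand), also fell with SNF5, by a smaller amount. Its level was 4.23, 4.50 and 4.30 in EGFP samples 1 to 3, and 3.75, 3.76 and 3.80 in SNF5 samples 1 to 3. The OmoMYC samples stood at 3.71, 3.71 and 4.02, again all below every EGFP sample. SNF5 gave a log2 fold change of −0.20 (standard error 0.055, adjusted p = 0.0203), a fold of 0.868 (95% confidence interval 0.796 to 0.946). The OmoMYC estimate of −0.19 (standard error 0.055, adjusted p = 0.0654) did not pass, and SNF5 against OmoMYC gave −0.016 (interval −0.14 to 0.11). The alternative cyclin gene CCNT2 (NM_058241, chromosome 2 from 135676392 to 135716915, plus strand) did not pass the test with either construct. Its level was 3.12 to 3.62 in EGFP, 3.14 to 3.30 in OmoMYC and 3.32 to 3.55 in SNF5 samples, and the log2 fold change was −0.063 for OmoMYC (interval −0.20 to 0.070) and 0.022 for SNF5 (interval −0.11 to 0.16). Without replicate 3, CCNT2 was called lower with OmoMYC (−0.14, adjusted p = 0.00612), a setting that called 6716 of all 14939 genes tested.

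The fall of CDK9 and CCNT1 with SNF5 was present in each pair. The log2 ratios in replicates 1, 2 and 3 were −0.38, −0.48 and −0.38 for CDK9 and −0.17, −0.26 and −0.18 for CCNT1. The calls were nevertheless lost in some settings. Without replicate 1 the adjusted p was 0.0664 for CDK9 and 0.147 for CCNT1, without replicate 2 it was 0.105 and 0.254, and without the replicate block 0.197 and 0.244. Calls over all genes fell in these settings too, to 1668 of 15165, 1428 of 14936 and 225 of 15060. Without replicate 3, whose promoter-proximal share lay between the others, both genes were called with SNF5 and also with OmoMYC, where CDK9 had a log2 fold change of −0.37 (adjusted p = 0.00157) and CCNT1 of −0.24 (adjusted p = 0.000329). That setting called many more genes of all kinds, 8493 of 14939 with SNF5 and 6716 with OmoMYC. With all replicates the calls were 5131 and 1284 of 15060. The direction did not change under any of the 7 alternatives for either gene and construct.

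LARP7 (NM_016648, chromosome 4 from 113558120 to 113578742, plus strand), part of the complex that holds P-TEFb inactive, was the member whose gene body reads rose with OmoMYC. Its level was 1.36, 1.59 and 1.22 in EGFP samples 1 to 3 and 1.69, 1.82 and 1.49 in OmoMYC samples 1 to 3. In SNF5 samples it was 1.63, 1.70 and 1.35. Each OmoMYC and SNF5 sample exceeded the EGFP sample of its number, while the groups overlapped. The log2 fold change was 0.26 with OmoMYC (standard error 0.069, adjusted p = 0.0488), close to the threshold, and 0.17 with SNF5 (standard error 0.069, adjusted p = 0.0846). The OmoMYC call ended with no filter on low counts (adjusted p = 0.0568), without replicate 1 (0.546), without replicate 2 (0.442) and without the replicate block (0.917).

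HEXIM1 (NM_006460, chromosome 17 from 43224684 to 43229468, plus strand), the inhibitor that joins P-TEFb to 7SK, differed between replicate numbers far more than between constructs. Its level was 21.8, 55.9 and 47.0 in EGFP samples 1 to 3. The OmoMYC samples had 23.9, 57.2 and 41.3, and the SNF5 samples 22.2, 51.4 and 37.2. Samples numbered 1 were lowest in all 3 constructs, at 21.8 to 23.9 against 37.2 to 57.2 elsewhere. The log2 fold change was −0.0088 with OmoMYC (interval −0.17 to 0.16) and −0.15 with SNF5 (interval −0.31 to 0.017, adjusted p = 0.146).

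The DSIF and SPT6 genes did not pass the test. SUPT5H (NM_001130825, chromosome 19 from 39936186 to 39967308, plus strand) had log2 fold changes of −0.13 in OmoMYC (adjusted p = 0.267) and −0.14 in SNF5 samples (adjusted p = 0.146). Its 9 samples ran from 1.32 to 2.53, with the 3 samples numbered 2 at 1.32 to 1.51. SUPT4H1 (NM_003168, chromosome 17 from 56422539 to 56429563, minus strand) gave −0.026 and 0.072, with the widest intervals of the 9 genes for gene body reads (−0.29 to 0.24 and −0.19 to 0.34). SUPT6H (NM_003170, chromosome 17 from 26989302 to 27029249, plus strand) gave −0.045 with OmoMYC and −0.13 with SNF5 (adjusted p = 0.137). Without replicate 3, SUPT5H (−0.24, adjusted p = 0.00245) and SUPT6H (−0.19, adjusted p = 0.00109) were called with SNF5. That setting called 5 of the 9 members with SNF5, beside 8493 of all 14939 genes tested.

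AFF4 (NM_014423, chromosome 5 from 132211071 to 132299354, minus strand), the scaffold gene, had levels of 3.56, 3.52 and 3.58 in EGFP, 3.91, 3.54 and 3.84 in OmoMYC and 3.78, 3.73 and 4.12 in SNF5 samples. All SNF5 samples lay above all EGFP samples, and the OmoMYC group overlapped EGFP. Neither construct passed the test, SNF5 with a log2 fold change of 0.12 (standard error 0.052, adjusted p = 0.0951) and OmoMYC with 0.081 (standard error 0.052, adjusted p = 0.335).

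Counted over the members, 1 of 9 was called higher and 0 lower in gene bodies with OmoMYC, where 8.53% of all genes tested were called. With SNF5, 0 were called higher and 2 lower, in a comparison that called 34.1% of all genes. In SNF5 against OmoMYC 0 of 9 were called, against 18.9% of all genes, and 0 had an unadjusted p under 0.05; DESeq2 also called 0. The members' median log2 fold change was −0.045 with OmoMYC and −0.13 with SNF5, beside medians of −0.00029 and −0.025 over all genes tested. The OmoMYC and SNF5 comparisons share their EGFP samples.

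**Figure D2:**
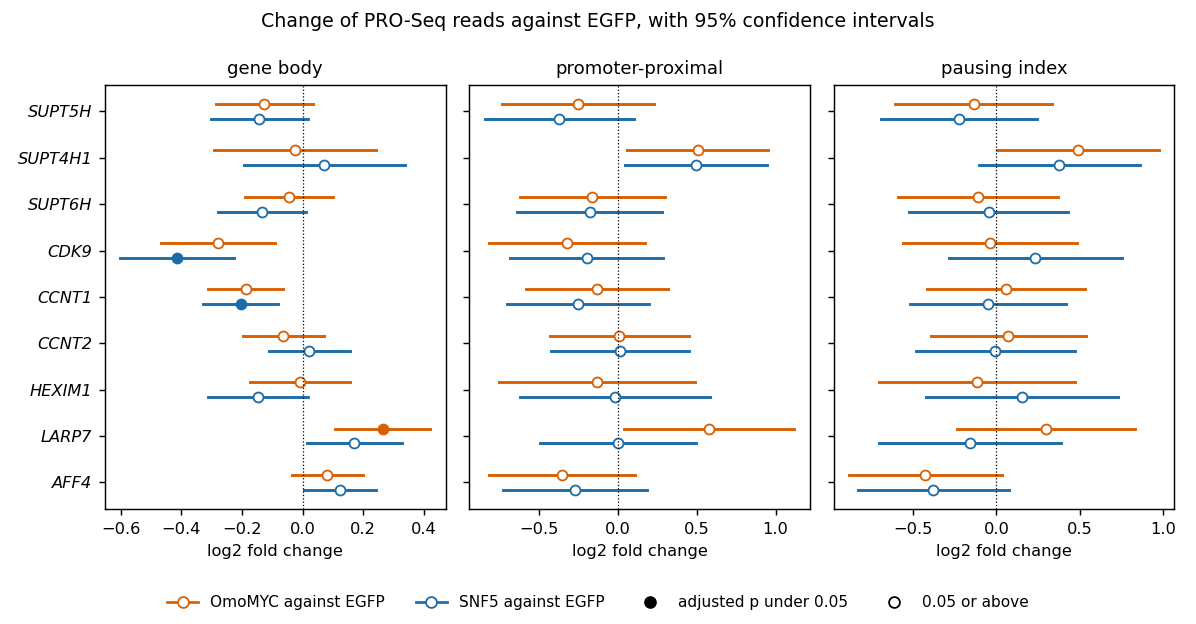
Log2 fold changes (x axes) of the 9 genes against EGFP for gene body reads, promoter-proximal reads and the pausing index, with lines for 95% confidence intervals. Orange is OmoMYC, blue is SNF5, and filled points have an adjusted p under 0.05. The filled points are CDK9 and CCNT1 with SNF5 and LARP7 with OmoMYC, all in the gene body panel, and intervals for promoter-proximal reads and the pausing index are wider.

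In the promoter-proximal window, a stretch of 50 bases that the authors placed near each start where reads were densest, member counts were small. HEXIM1 had 14 to 54 reads per sample, CDK9 46 to 130 and SUPT5H 58 to 515. With OmoMYC 0 of 9 members were called (1.80% of all genes), 2 had an unadjusted p under 0.05, and DESeq2 called 0. SUPT4H1 counts were 23, 358 and 262 in EGFP samples 1 to 3. The OmoMYC samples had 29, 568 and 353 reads there, and the SNF5 samples 42, 641 and 315. Scaled for depth it was higher than EGFP in 3 of 3 pairs with each construct, with a log2 fold change of 0.51 with OmoMYC (adjusted p = 0.251) and 0.50 with SNF5 (adjusted p = 0.195). LARP7 gave 0.58 with OmoMYC (adjusted p = 0.282), and its pairs disagreed, with log2 ratios of 1.70, 0.60 and −0.38 in replicates 1, 2 and 3. Without replicate 3 the LARP7 change was 1.03 and was called (adjusted p = 0.00518). In this comparison the median of all genes was shifted by 0.13.

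With SNF5, 0 of 9 members were called in the promoter-proximal window (4.27% of all genes), 1 had an unadjusted p under 0.05, and DESeq2 called 0. CDK9 gave −0.20 (interval −0.68 to 0.29) and CCNT1 −0.25 (interval −0.70 to 0.20), intervals that include changes as large as those of their gene bodies. SNF5 against OmoMYC called 0 of 9 (0.827% of all genes), with 1 at an unadjusted p under 0.05 and 0 by DESeq2, and the median of all genes was shifted by −0.17.

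The pausing index, promoter-proximal reads per base over gene body reads per base, separated HEXIM1 from the rest. Its index was 0.37, 0.48 and 0.50 in the EGFP samples and 0.28 to 0.70 over all 9, within the lowest 0.439% of genes in each sample. The other 8 members ran from 3.40 (SUPT4H1, EGFP sample 1) to 201.9 (SUPT5H, EGFP sample 2). SUPT5H had the highest index of the members in EGFP samples 2 and 3 (201.9 and 90.1), and AFF4 in sample 1 (13.9). CDK9 was second lowest in EGFP samples 2 and 3, at 10.2 and 7.59. The index followed the share of promoter-proximal reads of each library: the median over all genes was 9.32 to 12.1 in samples numbered 1, 44.8 to 53.7 in those numbered 2 and 26.1 to 27.8 in those numbered 3. Members are therefore ranked only within a sample, and the ranges over samples given above mix replicate numbers.

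**Figure D3:**
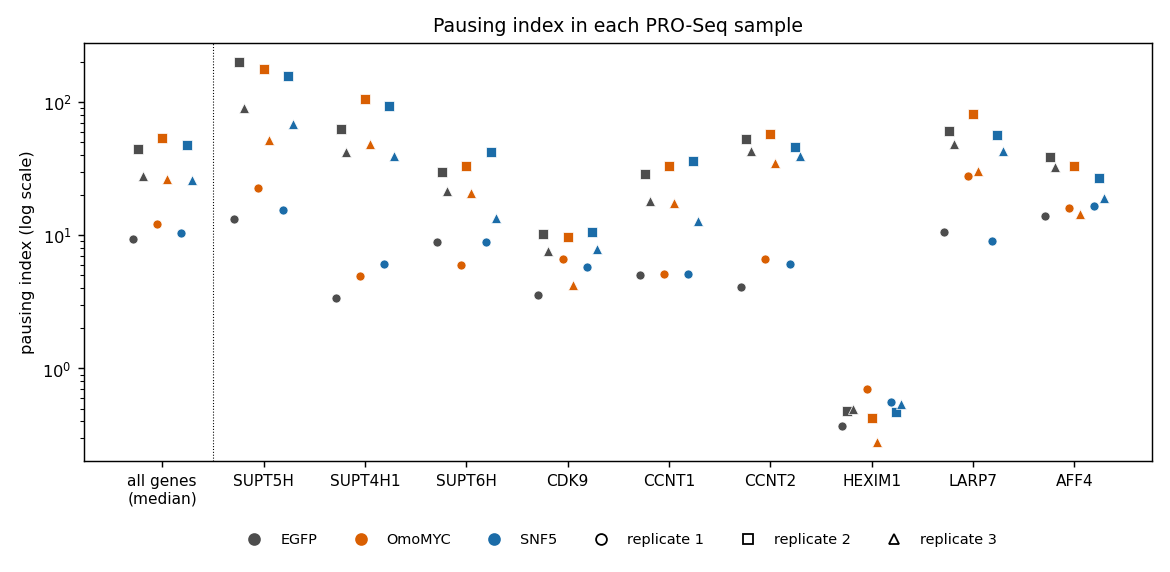
Pausing index (y axis, log scale) of the 9 genes and the median over all genes (left) in each of 9 PRO-Seq samples. Colours give the construct and marker shapes the replicate number. HEXIM1 stays between 0.28 and 0.70 in all samples, and the other genes and the median are mostly highest in replicate 2 and lowest in replicate 1.

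No member passed the adjusted threshold for a change in its pausing index. With OmoMYC 0 of 9 were called (2.26% of all genes), with 1 at an unadjusted p under 0.05 and 0 called by DESeq2. With SNF5 0 of 9 were called (3.66% of all genes), with 0 at an unadjusted p under 0.05 and 0 called by DESeq2. In SNF5 against OmoMYC the numbers were 0 of 9 (1.23% of all genes), 0 and 0. The paper, with its own test, reported changed pausing indices at far more genes for each construct against EGFP. The number of calls thus depends on the test, and a member that was not called is not shown to be unchanged. The estimates furthest from 0 were those of SUPT4H1 with OmoMYC, 0.49 on the log2 scale (interval 0.00058 to 0.97, adjusted p = 0.322), LARP7 in SNF5 against OmoMYC, −0.46 (interval −0.99 to 0.075, adjusted p = 0.457), and AFF4, −0.43 with OmoMYC (interval −0.88 to 0.031) and −0.38 with SNF5 (interval −0.83 to 0.075). The median change of the index over all genes was itself shifted, by 0.14 with OmoMYC and −0.13 in SNF5 against OmoMYC. With SNF5 against EGFP it was 0.014. CDK9, whose gene body reads fell, had 0.23 with SNF5 (interval −0.29 to 0.75). Its index was higher in 3 of 3 pairs, with log2 ratios of 0.70, 0.059 and 0.048 in replicates 1, 2 and 3. The promoter-proximal reads of CDK9 alone had log2 ratios of 0.32, −0.42 and −0.34 in the same pairs. The share of all genes higher in 3 of 3 pairs was not counted, here or for promoter-proximal reads. Without replicate 3, LARP7 was called with OmoMYC (0.80, adjusted p = 0.0467).

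Other genes of the pathway were taken from a list of 35, of which 33 were in the table and 32 passed the gene body filter. With OmoMYC 3 rose, 1 fell and 28 did not pass; with SNF5 4 rose, 8 fell and 20 did not pass. The shares called over all genes were 8.53% and 34.1%, near those of the list. ELL2, an elongation factor, had levels of 0.242, 0.254 and 0.0796 in EGFP, 0.433, 0.469 and 0.106 in OmoMYC and 0.522, 0.533 and 0.130 in SNF5 samples, higher than EGFP in each pair. Its log2 fold change was 0.72 with OmoMYC (adjusted p = 0.0156) and 0.97 with SNF5 (adjusted p = 0.000322). AFF1, the paralog of AFF4, rose by 0.65 with OmoMYC (adjusted p = 0.0188) and 1.19 with SNF5 (adjusted p = 0.0001), from 0.358, 0.354 and 0.265 in EGFP to 0.901, 0.875 and 0.514 in SNF5 samples. MLLT3, a chromatin reader, rose by 1.85 on the log2 scale with SNF5 (adjusted p = 0.000133), from low levels of 0.0270, 0.0303 and 0.0149 in EGFP to 0.117, 0.134 and 0.0351 in SNF5 samples. The SNF5 calls of these 3 held without each replicate number in turn and ended without the replicate block.

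MNAT1, a subunit of the TFIIH kinase, rose by 0.25 with OmoMYC (adjusted p = 0.0364) and by 0.26 with SNF5 (adjusted p = 0.00923). WDR61, of the PAF1 complex, fell by 0.36 with OmoMYC (adjusted p = 0.0456) and by 0.34 with SNF5 (adjusted p = 0.0186). MLLT1, the paralog of MLLT3, fell by 0.25 with SNF5 (adjusted p = 0.00883). The OmoMYC calls of all 4 named genes, and the SNF5 calls of MNAT1, WDR61 and MLLT1, ended without replicate 1, without replicate 2 and without the replicate block. In SNF5 against OmoMYC 3 genes of the list were higher, among them MLLT3 (1.29, adjusted p = 0.000987) and AFF1 (0.55, adjusted p = 0.00654). Among the 2 that were lower was ELL, an elongation factor (−0.23, adjusted p = 0.0226). MLLT3 kept its call without each replicate in turn, AFF1 lost it without replicate 1, and ELL lost it without replicate 1 and without replicate 2. Without the replicate block 0 of the 32 genes were called in any comparison of gene bodies. In promoter-proximal reads and in the pausing index 0 of 30 genes of the list were called in any comparison.

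MYC peaks, called by the authors in each sample on hg19, were assigned to a gene when their summit lay within 1 kb of any of its annotated starts. In the EGFP lists, of 940 and 5396 peaks, 1 member had a peak in both samples, as did 6.56% of the 12872 genes with reads and a start in the annotation. That member was SUPT5H, with peaks at chr19:39926438-39926606 (4.62-fold over local background, rank 595 by q-value) and chr19:39926357-39926780 (7.15-fold, rank 1107). Both summits lay 9541 to 9647 bp upstream of the SUPT5H start used for PRO-Seq, near a start of a longer transcript, and nearer still, 16 and 56 bp, to the start of RPS16, a ribosomal protein gene on the other strand. Which gene the peak belongs to cannot be told from its position.

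EGFP sample 2 had peaks at 2 further members, so that 3 of 9 had one, beside 33.7% of all genes. CCNT2 had 3 peaks there, with summits at chr2:135675779, 135676333 and 135676763 and enrichments of 4.76, 4.76 and 3.41. AFF4 had 1, at chr5:132299204-132299468, with an enrichment of 5.003 and rank 3207, and its summit lay 49 bp from a start of the gene. These did not recur in EGFP sample 1, whose list is shorter. CDK9, CCNT1, LARP7, HEXIM1, SUPT4H1 and SUPT6H had no MYC peak within 5 kb of a start in either sample. In the SNF5 lists, of 137 and 27 peaks, no member had a peak within 5 kb. Each OmoMYC list held a single line, named as a placeholder, and was not used. The lists hold no read counts, so a peak absent from a list is not a measured absence of MYC.

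**Figure D4:**
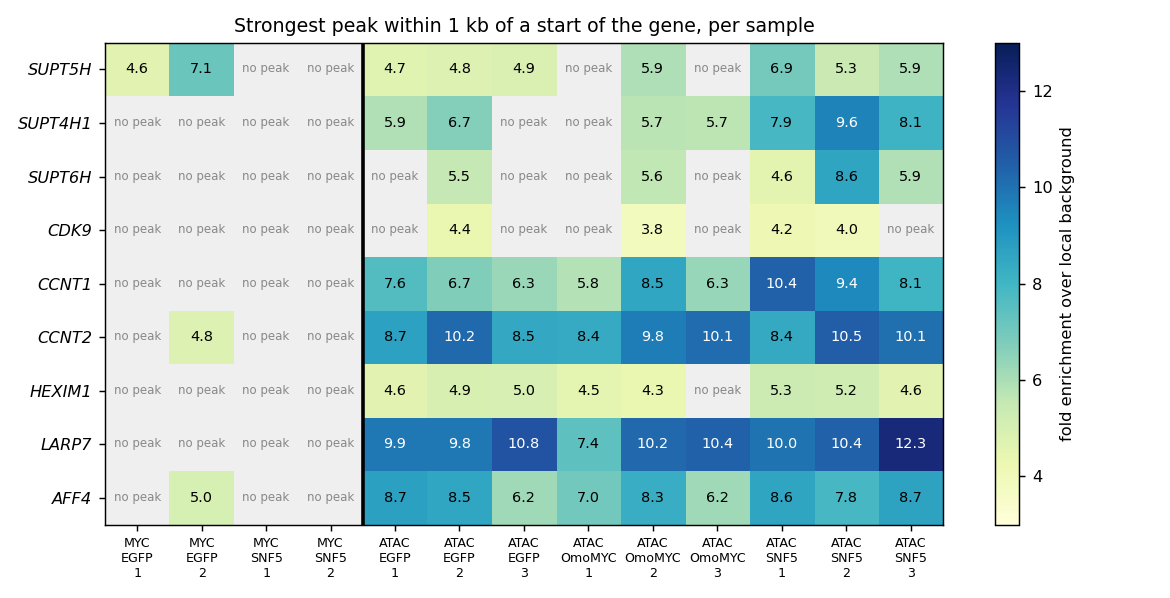
Fold enrichment over local background, as the authors' peak caller gave it, of the strongest peak within 1 kb of a start of each gene (rows) in each MYC ChIP-Seq and ATAC-Seq sample (columns). Grey cells have no peak. CCNT1, CCNT2, LARP7 and AFF4 have an ATAC peak in all 9 samples, and CDK9 has the fewest, in 4 of 9.

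ATAC-Seq peaks, on hg38 and likewise called per sample, were present at CCNT1, CCNT2, LARP7 and AFF4 in all 9 samples. In all 3 EGFP samples 6 of 9 members had a peak, beside 44.1% of genes, in all 3 OmoMYC samples 4 of 9, beside 39.5%, and in all 3 SNF5 samples 8 of 9, beside 63.0%. List length moved with these counts, with 9208 to 17817 peaks in EGFP, 7260 to 23684 in OmoMYC and 22722 to 33596 in SNF5 samples. When the 7260 strongest peaks were taken from each list, an alternative chosen after seeing the data, the count was 4 of 9 for each construct. The genes were not all the same. AFF4, CCNT2 and LARP7 were joined by CCNT1 in EGFP and OmoMYC, and by SUPT4H1 in SNF5 samples. The share of all genes at this setting was not counted.

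Peaks at LARP7 and CCNT2 were among the stronger ones. That at LARP7 had an enrichment of 9.84 to 10.8 in EGFP, 7.39 to 10.4 in OmoMYC and 9.97 to 12.3 in SNF5 samples, with its summit 31 to 136 bp from the start of ZGRF1, a gene on the other strand. That at CCNT2 had 8.46 to 10.2, 8.37 to 10.1 and 8.42 to 10.52, with groups that overlapped throughout. CDK9, whose gene body reads fell with SNF5, had weak peaks, of 4.36 in EGFP sample 2, 3.83 in OmoMYC sample 2, and 4.17 and 3.99 in SNF5 samples 1 and 2. CCNT1 peaks were 6.30 to 7.64 in EGFP, 5.83 to 8.52 in OmoMYC and 8.08 to 10.4 in SNF5 samples, so the SNF5 values lay above the EGFP values. The same held at SUPT4H1, where listed, and for the SUPT5H peak at the RPS16 side (4.66 to 4.88 in EGFP and 4.99 to 5.90 in SNF5 samples). OmoMYC sample 2 had 5.93 at that site, above every SNF5 sample, and OmoMYC samples 1 and 3 had no peak there. The share of all peaks with SNF5 values above the EGFP values was not counted. SUPT4H1 was listed in EGFP samples 1 and 2 (5.85 and 6.67), OmoMYC samples 2 and 3 (5.73 and 5.69) and all SNF5 samples (7.85, 9.59 and 8.09). At the start of SUPT5H used for PRO-Seq, SNF5 samples 1 and 2 had peaks (6.95 and 5.31, summits at chr19:39445562 and 39445556) that no other list held, and the other SUPT5H peaks within 1 kb of a start lay at the RPS16 side. HEXIM1 was listed in 8 of 9 samples, at 4.33 to 5.32, and SUPT6H in 5, at up to 8.55, near the start of SDF2 on the other strand. These enrichments compare each library with its own background and were not tested between constructs.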

How the data were processed

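PRO-Seq reads of 9 samples were trimmed with cutadapt, reverse complemented, aligned to hg19 with Bowtie2, stripped of rRNA and low-quality alignments, and counted per RefSeq transcript with NRSA by the authors. The deposited table holds raw counts for each region and a density signal (reads per bp), from which gene body length was taken. Peaks were called per sample with MACS2 by the authors, on hg19 for MYC ChIP-Seq and hg38 for ATAC-Seq. The deposited lists give a fold ratio over local background and −log10 p and q-values, with no read counts. IgG samples were not analysed here.

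For each of 20367 symbols the transcript with most gene body counts was kept. Counts with a mean of at least 10 were tested with edgeR 4.0.16 (quasi-likelihood, R 4.3.3) across all genes and all 9 samples, with the replicate number as a block, offsets of gene body totals times RLE factors, and Benjamini-Hochberg adjustment at 0.05. Pausing index changes were tested as a construct by region interaction, with a term per sample. Numbers pair samples: deviations from construct means across 11171 genes correlated at 0.812 to 0.922 for gene body counts of samples with the same number (promoter-proximal 0.693 to 0.853, pausing index 0.526 to 0.838) and at −0.764 to 0.287 for others. Fits were tested on simulated data with changes larger than those called at the members, so recovery of changes as small as theirs was not examined. Starts were those of GENCODE release 44 in GRCh37, and the GRCh38 starts it lists. No coordinate was converted. Alternatives were TMM factors, DESeq2 1.42.0, no count filter, no block, own scaling of promoter-proximal counts, each replicate left out, and other distances and thresholds for peaks. Precision is limited by counting error where promoter-proximal counts are small.

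The 9 genes and the pathway list were chosen with earlier results of these data known. Named were the 9 genes, SMARCB1 and MYC as checks, and at most 4 genes of the pathway list per comparison by smallest adjusted p. A result for 1 gene of that list is not reported here.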

Additional observations from a re-analysis of the deposited data

How the results depend on the processing

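Of 593 log2 changes of single members under the alternatives, 570 stayed on the same side of the threshold, 10 lost a call (CDK9, CCNT1 and LARP7), 13 gained one and 0 called changes reversed. Most of the 593 were not called in the main fit and had no call to lose. Of 7 alternatives each, the call ended in 3 for CDK9 and 3 for CCNT1 with SNF5, and in 4 for LARP7 with OmoMYC. Changes that were not called sometimes differed in sign. The 13 gains all came without replicate 3. With no replicate block, the genes called in gene bodies were 1 for OmoMYC, 225 for SNF5 and 75 for SNF5 against OmoMYC, those in promoter-proximal reads and pausing index were 0 in every comparison, and the members called in gene bodies were 0 for OmoMYC and 0 for SNF5. DESeq2 called 2097 genes in gene bodies for OmoMYC, 313 (SNF5) and 61 (SNF5 against OmoMYC) in promoter-proximal reads, and 68 (OmoMYC), 101 (SNF5) and 40 (SNF5 against OmoMYC) in the pausing index. With no filter on low counts, promoter-proximal calls were 305, 788 and 258 in the same order, and members called in gene bodies for OmoMYC were 0. Scaling by promoter-proximal totals called 993 genes for SNF5, 497 higher and 496 lower.

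Leaving out 1 replicate gave, for OmoMYC, SNF5 and SNF5 against OmoMYC, 2 to 6716, 1428 to 8493 and 748 to 6232 genes in gene bodies, 3 to 886, 47 to 996 and 21 to 484 in promoter-proximal reads, and 0 to 954, 4 to 620 and 6 to 484 in the pausing index. Members called in gene bodies ran from 0 to 4, 0 to 5 and 0 to 3. In promoter-proximal reads, and again in the pausing index, they ran from 0 to 1 for OmoMYC and 0 to 1 for SNF5 against OmoMYC, the call being LARP7 without replicate 3. The highest gene body counts also came without replicate 3. The cause was not tested.

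Members with a MYC peak in every EGFP sample ran from 1 to 3 when 1 sample was left out. With the 7260 strongest ATAC-Seq peaks of each list, 4 members had a peak in all SNF5 samples, and the share of all genes was not counted. Small promoter-proximal counts and peak lists without read counts limit the precision.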
